A study of Mus musculus with 18 samples.

Results

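The AP-1 transcription factor genes were followed in newly transcribed RNA of NIH-3T3 cells, an immortalised mouse fibroblast line, during short treatment with interferon (IFN) and with the translation inhibitor cycloheximide (CHX). The 9 genes were Fos, Fosb, Fosl1, Fosl2, Jun, Junb, Jund, Atf3 and Maff. Every probe set of the array that the platform annotation assigns to 1 of these symbols and to no other gene was taken, which gave 13 of 45101 probe sets, and 9 of the 18193 genes with such a probe set. Of the 13 probe sets, 12 were bright enough on at least 1 array to be tested, and a second Jund probe set, listed at 4.0 to 5.7 on all 18 arrays, was not. Each treatment was represented by 3 arrays, called biological replicates in the study, and the 6 treatments were CHX with IFNγ, CHX with IFNα, CHX alone, IFNγ, IFNα and mock. The cells received CHX, or its solvent DMSO, for 15 min. IFN at 100 U/ml or mock was then added for 1 h with CHX or DMSO still present, so that exposure to CHX lasted 75 min. All 6 groups, mock included, were given 500 µM 4-thiouridine (4sU) during the last 30 min, and the RNA that had taken up 4sU was purified and hybridised. The labels do not tie the 3 arrays of a treatment to separate cell stocks, and p-values measure the spread between these arrays only.

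AP-1 is a family of dimeric basic leucine zipper (bZIP) factors. Jun proteins pair with each other and with Fos proteins, whereas Fos proteins need a partner, and Atf3 and the small Maf protein Maff join related dimers that often repress. Several of these genes are immediate-early genes: growth factors, stress and cytokines switch on their transcription without new protein synthesis, and both the RNAs and the proteins are short-lived. Dimers of Jun and Fos bind the TPA response element, written here as TGANTCA with N for any base, and dimers with CREB and ATF factors bind the cyclic AMP response element TGACGTCA.

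The 9 genes lie on 8 chromosomes, with Junb and Jund both on chromosome 8. RefSeq start sites of the GRCm38.p6 build, with 250 bases before and 50 after the start, were at hand for 8 of the 9 genes, all except Fosl1. The 150 bases before the start are shown for Atf3, Jun and Maff, whose RNA was higher on every array with CHX than on every array without it, and for Fos, which moved little. Positions are chr1:191183334-191183483 on the minus strand for Atf3, chr4:95052223-95052372 on the minus strand for Jun, chr15:79347370-79347519 on the plus strand for the second of 3 Maff starts, and chr12:85473740-85473889 on the plus strand for Fos. Capitals mark TGACNTCA and the partial element TGACG on either strand, and overlapping matches run together.
Atf3: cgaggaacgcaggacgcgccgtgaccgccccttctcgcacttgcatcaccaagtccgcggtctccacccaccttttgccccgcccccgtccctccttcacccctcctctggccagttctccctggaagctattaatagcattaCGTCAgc
Jun: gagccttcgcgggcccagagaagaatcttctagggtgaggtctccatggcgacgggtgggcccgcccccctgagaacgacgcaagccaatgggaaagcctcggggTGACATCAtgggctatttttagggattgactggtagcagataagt
Maff: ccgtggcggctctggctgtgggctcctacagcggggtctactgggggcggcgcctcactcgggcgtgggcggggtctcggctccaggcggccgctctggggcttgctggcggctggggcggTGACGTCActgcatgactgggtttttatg
Fos: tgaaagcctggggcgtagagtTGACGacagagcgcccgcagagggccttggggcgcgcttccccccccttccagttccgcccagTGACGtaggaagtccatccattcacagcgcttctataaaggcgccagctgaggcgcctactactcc

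The printed stretches differ in what they hold. Jun has TGACATCA beginning 45 bases before its start, and Maff has the full TGACGTCA 29 bases before the second start. Another Maff start, the third, also has TGACATCA, again beginning 45 bases before it. TGACNTCA, chosen after these sequences had been seen, was thus found at 2 of 8 genes and in 8.83% of 32851 mouse promoters of the same length, and TGACGTCA was found at Maff alone and in 1.79%. The letters TGACG stood 129 and 66 bases before the Fos start and, on the other strand, 7 bases before that of Atf3. They occurred in 5 of the 8 genes, also in Fosb and Junb, and in 20.8% of all promoters. TGANTCA was found in none of the 8 and in 7.81% of all. Of the patterns of the IFN pathways, TTCNNNGAA (8.3% of promoters) occurred at Maff, 27 bases after the second start, and GAAANNGAA (8.56%) at Fosl2 and Jund. Of 3 further patterns searched, the NF-kB motif occurred at 4 of the 8 genes (Fos, Fosb, Fosl2 and the third Maff start) and in 8.46% of promoters, TATAA at 2 (Fos and Junb) and in 24.9%, and the CArG box of serum response factor at 0 and in 1.63%. A gene with several starts, as Maff has, was counted once for any of them. Such matches describe letters in a window and do not show that a factor was bound.

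The arrays were alike in scale, with medians of 9.6 to 10.8 intensity units and correlations of 0.9275 to 0.9953 between arrays. The treatments were visible in known responders. Mx2, an antiviral gene driven by type I IFN, lay at 984 to 1213 with CHX and IFNα and at 305 to 346 with IFNα, against at most 5.2 in the groups without IFNα. Irf1, a transcription factor gene induced by both IFNs, lay at 11533 to 13276 with IFNγ against 204 to 376 in mock. All 11 fibroblast markers, such as Vim and Fn1, were detected. The 7 leukocyte markers on the array summed to 175 to 313 on arrays with CHX and to 81 to 141 on arrays without it. Most of this was Cd68, which fibroblasts can also express, while Ptprc, Cd3e, Itgam, Adgre1, Csf1r and Tyrobp stayed at or below 6.5. Sums over 6 epithelial markers were 44 to 54 with CHX and 41 to 46 without it, and over 5 endothelial markers 25 to 28 and 24 to 27.

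CHX was accompanied by higher new RNA of all 9 AP-1 genes, and the genes differed widely in the size of the change. Over the 9 arrays with CHX and the 9 without, Atf3 was 6.16-fold higher, Jund 3.48-fold, Fosb 2.79-fold, Maff 2.77-fold and Jun 2.01-fold. Fosl1, Junb, Fosl2 and Fos were 1.47-fold, 1.35-fold, 1.27-fold and 1.23-fold higher. A probe set was called where the adjusted p was under 0.01 and the change at least 2-fold, and each gene was counted through its probe set with the highest mean. By this rule 5 of the 9 genes were raised in the mean of the 3 CHX effects (without IFN, with IFNα and with IFNγ), against 3.89% of the 27773 probe sets tested. At an adjusted p under 0.01 without a minimum change, all 9 genes were raised, against 12.7% of probe sets. This count was 8 after quantile normalization (Fos lost, at 0.0228) and after median centring (Junb, at 0.0145), and 7, 3 and 6 without replicate number 1, 2 and 3 of all 6 treatments. Fos, Fosl1 and Junb had adjusted p of 0.0505, 0.0567 and 0.0601 without replicate number 2, and Fosl2 had 0.0304 without replicate number 3. Fos was also at 0.0104, 0.01 and 0.0102 without IFNα replicate 3, IFNγ replicate 3 or CHX with IFNα replicate 2. The median log2 change was 1.01 over the 9 genes and 0.03 over all probe sets tested. For the main probe set of each of the 9 genes, the array with CHX was higher than the same-numbered array without it in 9 of 9 pairs. This held in 8 of 9 pairs for the other Fosl1 and Fosl2 probe sets, and in 9 of 9 for the other Jun probe set. Of all probe sets tested, 53.7% had a mean CHX effect above 0. The shares of all probe sets higher in every pair, or on every array with CHX than without it, were not counted. The 3 CHX effects share no array. Without the 6 arrays of replicate number 2, only Jun and Atf3 of the 5 kept their calls, with adjusted p of 0.024 for Fosb, 0.0221 for Jund and 0.0129 for Maff. Changes in the synthesis of an RNA and in its loss during the 30 min of labelling cannot be told apart here. The part of the leukocyte marker Cd68 in these changes was not tested.

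**Figure D1:**
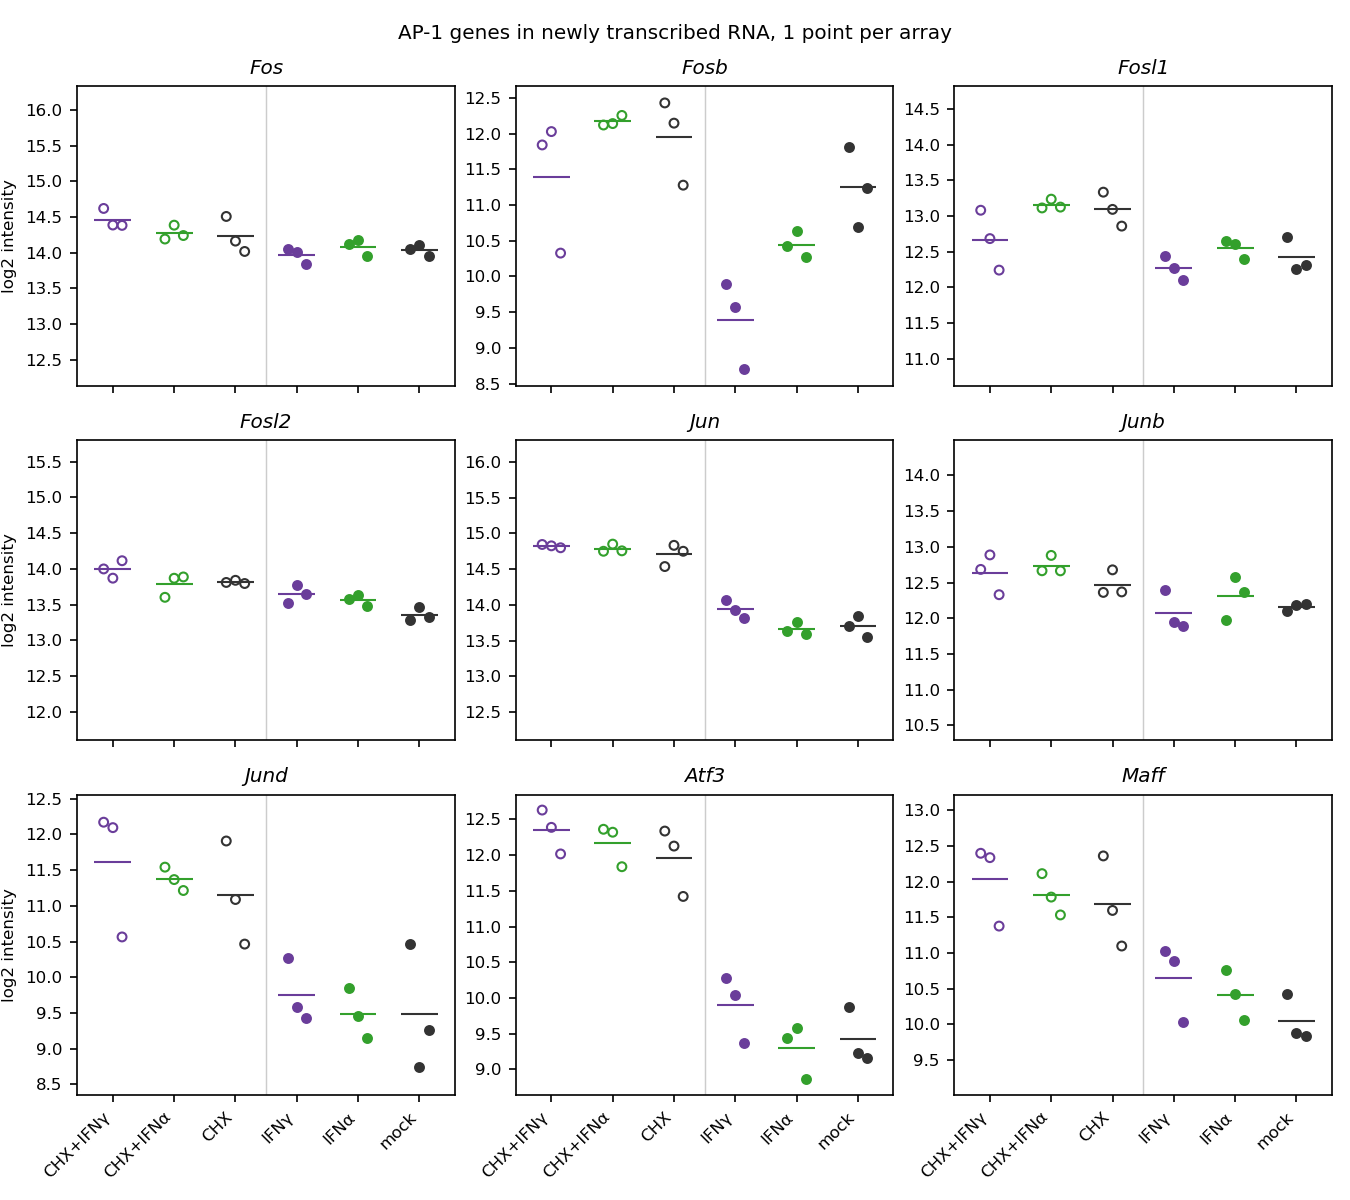
Log2 intensity of the 9 AP-1 genes on 18 arrays, with 1 point per array, the mean of each treatment as a horizontal bar, and a vertical line between the treatments with CHX (open points, left) and without CHX (filled points, right). The scale differs between panels. All 9 arrays with CHX lie above all 9 without it for Jun, Atf3 and Maff, and Fosb is lowest with IFNγ alone.

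Taken singly in the main model, which had no block for replicate number, the 3 CHX effects, each of 3 arrays against 3, gave fewer calls. CHX against mock raised 3 of the 9 genes, Atf3, Jun and Maff, against 2.51% of probe sets. CHX with IFNα against IFNα raised 2, Atf3 and Jun, against 3.57%, and CHX with IFNγ against IFNγ raised 2, Atf3 and Fosb, against 2.85%. Arrays of the same replicate number deviated together in these 3 comparisons. With the replicate number as a block the counts were 4 (Jund added), 5 (Fosb, Jund and Maff added) and 4 (Jund and Maff added). Leaving out single arrays also moved the counts. CHX against mock called Atf3 alone without mock replicate 3 or without CHX replicate 2, and Jun alone without replicate number 2 of all 6 treatments. CHX with IFNγ against IFNγ called Atf3 alone without any of 4 arrays, namely IFNγ replicates 2 and 3 and CHX with IFNγ replicates 1 and 2, or without replicate number 1. It called 4 genes without CHX with IFNγ replicate 3, among them Jund (adjusted p = 0.00291) and Maff (0.00502), and 0 without replicate number 2, where the adjusted p for Atf3 was 0.0133. Neither interaction of CHX with an IFN was called for any of the 9 genes, against 0.187% of probe sets for IFNα and 0.238% for IFNγ, and 0 of 9 had an unadjusted p under 0.05 in limma, against 3.96% and 7.78% of probe sets.

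**Figure D2:**
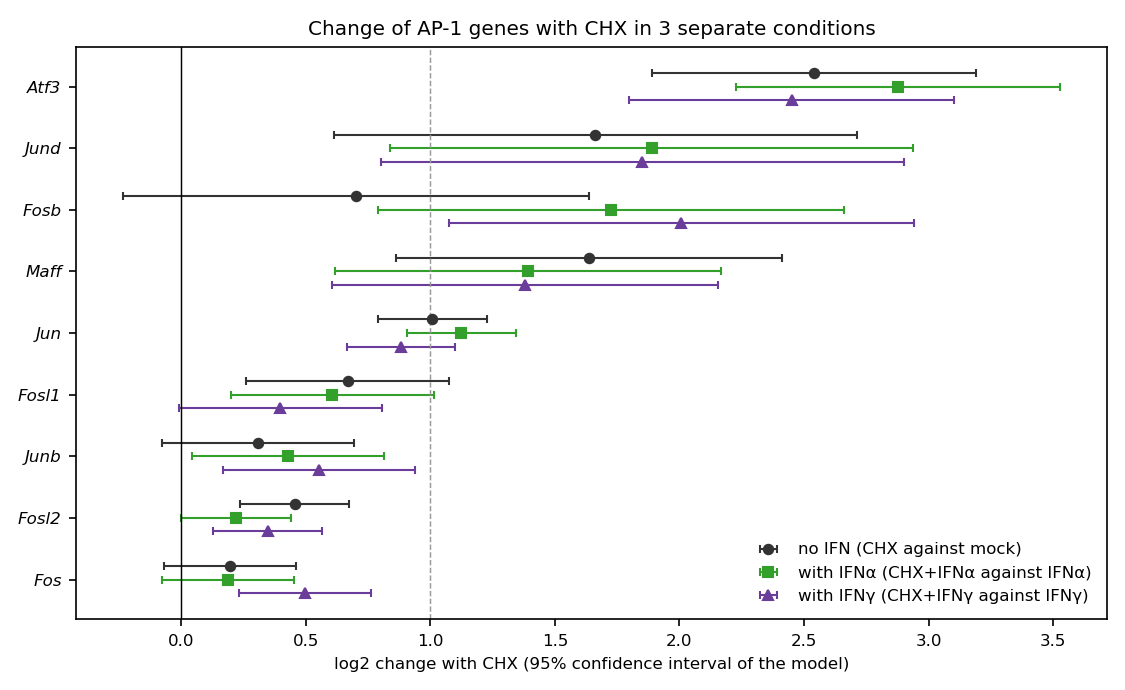
Log2 change with CHX for the 9 AP-1 genes without IFN, with IFNα and with IFNγ, with 95% confidence intervals from the linear model of 18 arrays. The model had no replicate block, and the dashed line marks a 2-fold change. Atf3 lies at 2.45 to 2.88 in all 3 conditions, Jun near the dashed line, and Fosb is the gene whose 3 estimates are farthest apart.

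Atf3, a stress-induced factor that can repress transcription, changed most. Its intensity was 5174, 4472 and 2744 with CHX, against 937, 599 and 575 in mock. It was 5265, 5116 and 3660 with CHX and IFNα, against 694, 769 and 465 with IFNα, and 6344, 5366 and 4143 with CHX and IFNγ, against 1239.5, 1055 and 662 with IFNγ. The lowest of the 9 arrays with CHX was more than 2-fold above the highest without it, and the array of replicate number 3 was the lowest of its treatment in 6 of 6 treatments. Atf3 rose 5.82-fold with CHX against mock (log2 2.54 ± 0.30 SE, adjusted p = 5.01e-05 in limma), 7.35-fold with CHX and IFNα against IFNα (2.88 ± 0.30, 1.32e-05) and 5.46-fold with CHX and IFNγ against IFNγ (2.45 ± 0.30, 5.37e-05). The interaction, the difference between the change with CHX in the presence and in the absence of an IFN, was 0.34 (95% interval -0.58 to 1.26) for IFNα and -0.09 (-1.01 to 0.83) for IFNγ. Without replicate number 2 of all 6 treatments the adjusted p for CHX against mock was 0.0237, with the estimate at 2.36.

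Maff, a small Maf protein without a transactivation domain, was likewise higher with CHX in all 3 conditions. It measured 5255, 3096 and 2192 with CHX, against 1378, 940.0 and 914 in mock. With CHX and IFNα it measured 4422, 3524 and 2964, against 1737, 1374 and 1072 with IFNα, and with CHX and IFNγ 5389.6, 5165 and 2659.8, against 2097, 1904 and 1053 with IFNγ. No array with CHX was as low as any array without it, and replicate number 3 was again the lowest in 6 of 6 treatments. Maff rose 3.11-fold with CHX against mock (log2 1.64 ± 0.36 SE, adjusted p = 0.00528 in limma). The changes of 2.62-fold with IFNα present and 2.60-fold with IFNγ present had adjusted p of 0.0134 and 0.0123 without the replicate block and of 5.68e-05 and 5.57e-05 with it. The call against mock was lost without any of 4 single arrays: the adjusted p was 0.0235 and 0.0234 without mock replicate 2 or 3, 0.0258 and 0.015 without CHX replicate 1 or 2, and 0.0373 and 0.145 without replicate number 1 or 2. It was also lost when no filter on dim probe sets was used (0.0115) and when only the 6 arrays compared were fitted (0.0347). In the mean of the 3 effects Maff was called with an adjusted p of 5.29e-05.

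**Figure D3:**
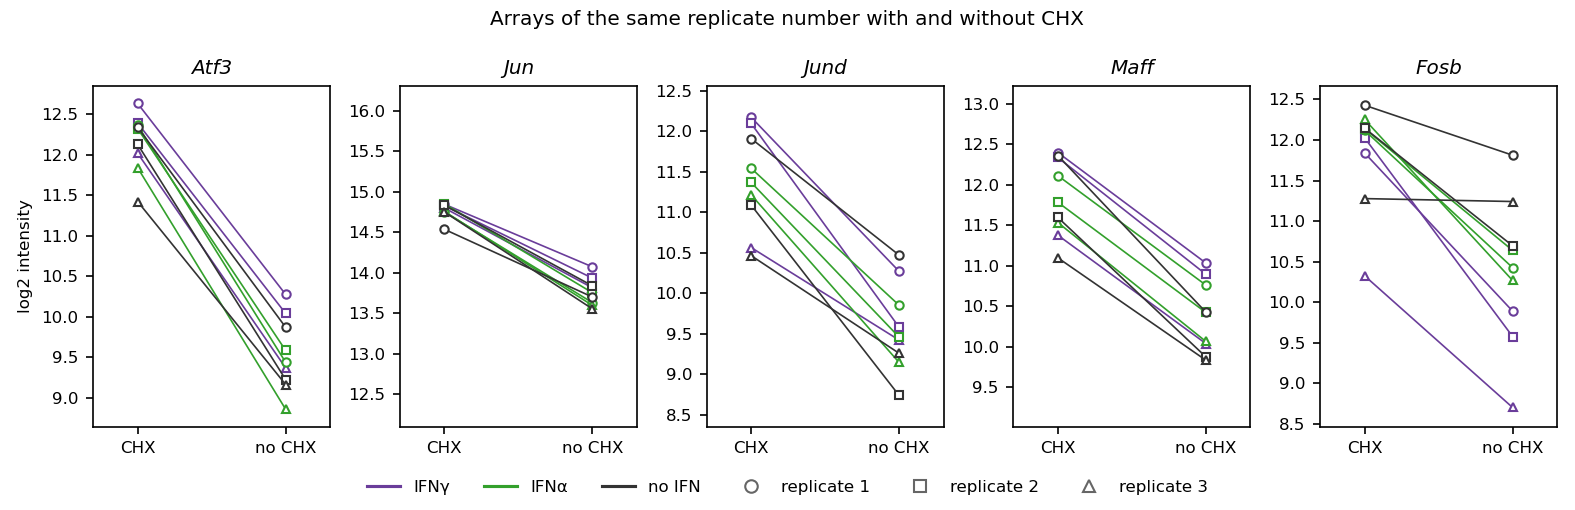
Log2 intensity of Atf3, Jun, Jund, Maff and Fosb on arrays with CHX (left of each panel) and without CHX (right), joined where the replicate number and the IFN treatment are the same. Every line is higher on the CHX side. The 2 ends of a line differ by 0.77 to 1.20 for Jun, the narrowest range of the 5 genes, and by 0.04 to 2.45 for Fosb, the widest.

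The Jun genes encode the partners that can also form dimers on their own. Jun itself was measured by a pair of probe sets. The main probe set gave 23757, 29193 and 27554 with CHX, against 13320.0, 14655 and 12032 in mock, and the 9 arrays with CHX spanned 23757 to 29533 while those without it spanned 12032 to 17231. The change was 2.01-fold with CHX against mock (log2 1.01 ± 0.10 SE, adjusted p = 1.17e-05 in limma), 2.18-fold with CHX and IFNα against IFNα (3.46e-06) and 1.84-fold with CHX and IFNγ against IFNγ (2.87e-05), the last below the 2-fold limit. The other Jun probe set changed more, with 2.59-fold, 2.65-fold and 2.27-fold and adjusted p of 3.2e-05, 2.0e-05 and 8.74e-05. The change of Jun was small and so was its spread. Its call against mock moved with the scaling, to a log2 change of 0.94 after quantile normalization and 0.93 after median centring, while the adjusted p stayed at or below 5.56e-05. It also fell short of 2-fold without mock replicate 3 (0.94), CHX replicate 2 (0.95) or CHX replicate 3 (0.99), and without replicate number 3 (0.92). Without replicate number 2 the other probe set had adjusted p of 0.019, 0.0133 and 0.02 in the 3 comparisons, and with IFNγ present its log2 change was 0.98 without IFNγ replicate 3 and its adjusted p 0.0227 with only the 6 arrays compared. In the mean of the 3 effects the main probe set likewise gave 0.93 and 0.95 under these scalings, so that 4 of the 9 genes were called. It fell short of 2-fold without any of 6 single arrays (lowest value 0.98) and without replicate number 3 (0.95). The other Jun probe set had a mean change of 2.49-fold (log2 1.32, adjusted p = 4.12e-08 in limma). Its call was kept under both scalings and with any array or replicate number left out (lowest value 1.25).

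Jund, usually described as the steadily expressed Jun gene, had a larger change and a larger spread. Its arrays read 3844, 2178 and 1414 with CHX, against 1419.7, 428 and 614 in mock. The values were 2982, 2643 and 2378 with CHX and IFNα, against 925, 704 and 567 with IFNα, and 4612, 4375 and 1515 with CHX and IFNγ, against 1236, 766 and 687 with IFNγ. The lowest CHX array, at 1414, lay just below the highest mock array, at 1419.7, and of the 9 arrays with CHX 8 exceeded all 9 without it. The change was 3.17-fold with CHX against mock (adjusted p = 0.0281 in limma), 3.70-fold with IFNα present (0.0134) and 3.61-fold with IFNγ present (0.0131), so that no single comparison passed. With the replicate block the adjusted p were 0.00174, 0.000678 and 0.000703. Jund also passed against mock without mock replicate 1, with a log2 change of 2.15 and an adjusted p of 0.00856. In the mean of the 3 effects its log2 change was 1.80 ± 0.28 (SE) with an adjusted p of 0.000131.

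Junb, an immediate-early Jun gene, moved less. It read 5264, 6552 and 5288 with CHX, against 4377, 4671 and 4701 in mock, and 6 of the 9 arrays with CHX exceeded all 9 without it. Its mean change was 1.35-fold (log2 0.43 ± 0.10 SE, adjusted p = 0.0038 in limma), below the 2-fold limit, and no single comparison had an adjusted p under 0.01.

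Among the Fos genes, Fosb stood apart from the other 3. Fosb encodes a Fos protein that is strongly but briefly made after stimulation. It read 5515, 4532 and 2484 with CHX, against 3599, 1659 and 2421.5 in mock, so that these groups overlapped. It read 4450.4, 4513 and 4883 with CHX and IFNα, against 1376.5, 1596 and 1234 with IFNα, and 3668, 4176 and 1285 with CHX and IFNγ, against 949, 764 and 417 with IFNγ. With either IFN present, each array with CHX was above each array without it. The change with CHX was 1.63-fold without IFN (adjusted p = 0.286 in limma), 3.31-fold with IFNα (0.0115, and 0.00254 with the replicate block) and 4.02-fold with IFNγ (0.00391). The last call was lost, at 0.0103, 0.0224, 0.0191 and 0.0179, without IFNγ replicate 2 or 3 or without CHX with IFNγ replicate 1 or 2, and at 0.0409 and 0.0968 without replicate number 1 or 2. It was lost as well when only the 6 arrays compared were fitted (0.0659). The differences between these CHX effects were not called: the interaction was 1.03 (95% interval -0.30 to 2.35) for IFNα and 1.31 (-0.01 to 2.63) for IFNγ, with adjusted p of 0.65 for the second.

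Fos, the founding member of the family, was well detected in every group. It read 23303, 18344 and 16587 with CHX, against 16954, 17649 and 15810.1 in mock. Over all arrays it spanned 16587 to 25181 with CHX and 14746 to 18507 without it, and these ranges overlapped. Its mean change was 1.23-fold (log2 0.29 ± 0.07 SE, adjusted p = 0.00411 in limma). The value with IFNγ present was 1.41-fold with an adjusted p of 0.00926. Fosl1 and Fosl2 encode the Fos-related proteins Fra-1 and Fra-2, which lack the strong activation domain of Fos. Fosl1 spanned 4845 to 10317.5 with CHX and 4404 to 6654 without it, a mean change of 1.47-fold (adjusted p = 0.000878), and its other probe set gave 1.54-fold (0.0328). Fosl2 spanned 12429 to 17722 with CHX and 9968 to 14041 without it, 1.27-fold (0.000309). A second Fosl2 probe set was dim, at 13.1 to 63.2 on all arrays, and its change of 1.54-fold did not pass (0.0932). By their main probe sets, the changes of Fos, Fosl1 and Fosl2 were thus small beside those of Atf3, Jund, Fosb and Maff. The 95% intervals of Fos, Fosl1 and Fosl2 in the mean of the 3 effects reached at most 0.45, 0.79 and 0.47 on the log2 scale. By mean intensity, the main probe sets of Fos, Fosl1, Fosl2 and Jun lay at percentiles 99.96, 99.17, 99.88 and 99.98. Those of Atf3, Jund, Fosb and Maff lay at 96.32, 95.25, 96.98 and 97. Whether such brightness limited the changes read was not tested.

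Without the replicate block, no AP-1 gene met the call rule for either IFN at this time. In IFNγ against mock 0 of 9 genes were called, against 1.63% of probe sets, and in IFNα against mock 0, against 0.5%. With CHX present the counts were also 0, against 3.18% for CHX with IFNγ against CHX and 0.893% for CHX with IFNα against CHX. IFNγ against IFNα gave 0 genes without CHX, against 1.47%, and 0 with it, against 2.93%. At an unadjusted p under 0.05 in limma the numbers of genes without CHX were 3 for IFNγ against mock (Fosb, Fosl2 and Jun), against 10.8% of probe sets, 0 for IFNα against mock, against 5.84%, and 2 for IFNγ against IFNα (Fosb and Jun), against 8.26%. With CHX they were 1 for CHX with IFNγ against CHX (Fosl1), against 18.1%, 0 for CHX with IFNα against CHX, against 4.01%, and 1 for IFNγ against IFNα (Fosl1), against 17.9%, none of them above the share over all probe sets. Comparisons with mock share the mock arrays, and those with CHX share the CHX arrays.

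**Figure D4:**
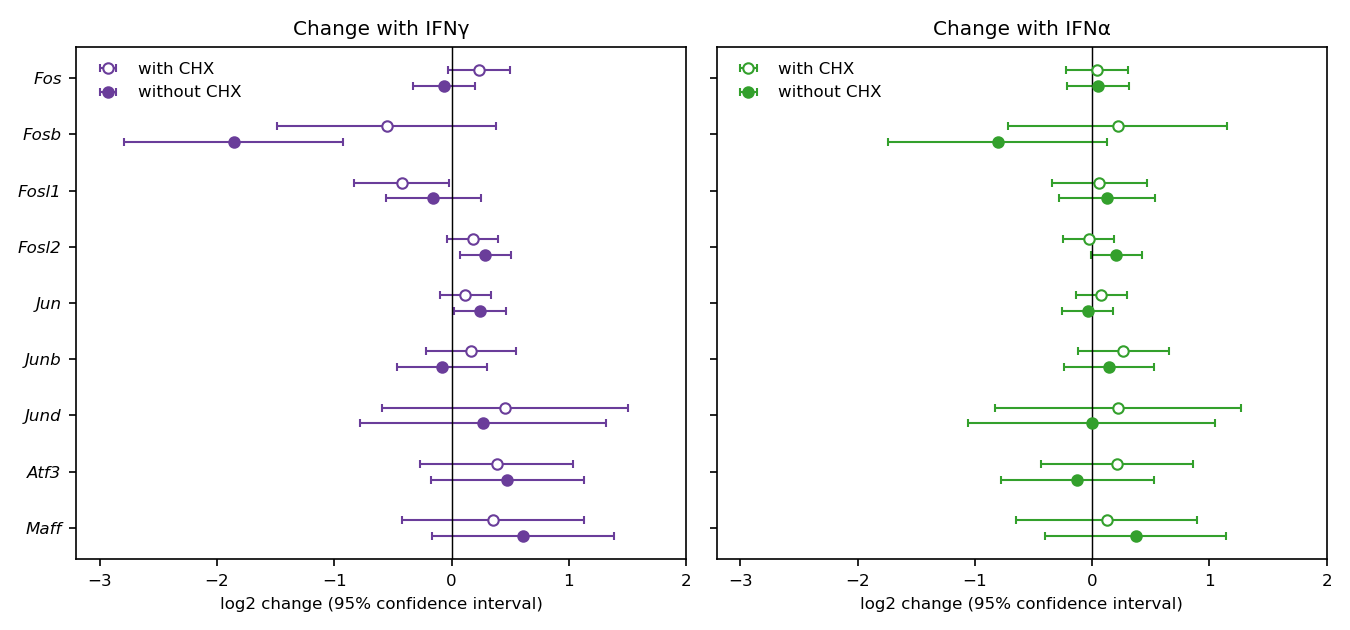
Log2 change of the 9 AP-1 genes with IFNγ (left) and IFNα (right), with CHX (open points) and without CHX (filled points), with 95% confidence intervals from the linear model of 18 arrays. The model had no replicate block, and most intervals include 0. Fosb with IFNγ and without CHX lies farthest from 0, at -1.86.

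Fosb had the lowest estimate with IFNγ. Its intensity of 949, 764 and 417 with IFNγ lay below all 3 mock arrays, at 3599, 1659 and 2421.5. The log2 change was -1.86 ± 0.44 (SE), or 3.63-fold lower, with an adjusted p of 0.0274 in limma, which misses the threshold of 0.01. With the replicate number as a block the adjusted p was 0.00555. Of the same-numbered IFNγ and mock arrays, replicates 1 and 3 deviated together and replicate 2 did not. With IFNα, at 1376.5, 1596 and 1234, all 3 arrays were also below mock, and the log2 change was -0.81 (adjusted p = 0.996). In the presence of CHX the IFNγ arrays overlapped the CHX arrays, with a log2 change of -0.55 (0.603). The order of the Fosb levels was CHX with IFNα, CHX, CHX with IFNγ, mock, IFNα and IFNγ, with geometric means of 4611, 3960.0, 2700.0, 2436, 1394 and 671. Among neighbours in this order, CHX with IFNα and CHX, CHX and CHX with IFNγ, and CHX with IFNγ and mock had overlapping arrays, while mock and IFNα, and IFNα and IFNγ, did not overlap.

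Among the treatments with CHX, Fosl1 had its lowest mean with IFNγ. It read 8658, 6575 and 4845 with CHX and IFNγ, against 8852, 9640 and 8928 with CHX and IFNα and 10317.5, 8732 and 7422 with CHX. The 3 arrays with CHX and IFNγ were below the 3 with CHX and IFNα, and they overlapped those with CHX. The log2 changes were -0.49 (adjusted p = 0.173 in limma) and -0.43 (0.25), and for its other probe set -1.01 (0.155) and -0.76 (0.318), both with overlapping arrays. Without CHX the Fosl1 estimates against mock were -0.15 with IFNγ and 0.13 with IFNα.

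None of the IFN estimates of the other members passed either. For Atf3 the change was 1.39-fold with IFNγ against mock (log2 0.48, 95% interval -0.18 to 1.13) and 0.92-fold with IFNα (-0.13, -0.78 to 0.53). For Maff the values were 1.53-fold with IFNγ (0.61, -0.16 to 1.38) and 1.29-fold with IFNα (0.37, -0.40 to 1.15). Jun was 1.18-fold higher with IFNγ (0.24, 0.02 to 0.46, adjusted p = 0.361 in limma), and its other probe set 1.39-fold (0.48, adjusted p = 0.146) with all 3 IFNγ arrays above mock. Fosl2 was 1.22-fold higher with IFNγ (0.29, 0.07 to 0.51, adjusted p = 0.211), also with all 3 arrays above mock. The intervals of Fos, -0.33 to 0.20 with IFNγ and -0.22 to 0.31 with IFNα, lie within a 2-fold change. For Jund they were wide, at -0.78 to 1.32 and -1.05 to 1.05, and do not exclude a 2-fold change in either direction with IFNα.

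Related genes were described from lists written with earlier results of these data known. Of 24 tested genes for other bZIP factors, 3 rose and 3 fell in the mean CHX effect, where 3.89% of probe sets were raised and 5.31% lowered. Nfe2l3, a factor of the Nrf family, rose by 1.57 on the log2 scale (adjusted p = 1.92e-05 in limma) and Crem, a cyclic AMP response factor with repressing isoforms, by 1.31 (9.66e-05). Crem was called with IFNα present, at 1.92 (0.0011), and with IFNγ present, at 1.66 (0.00285), but not against mock, at 0.34 (0.507), and the interactions were not called (0.523 and 0.464). Cebpd, an acute-phase regulator, fell by 1.81 (7.48e-07), and Jdp2, which pairs with Jun and represses, fell by 1.41 (1.13e-06). Jdp2 was called in all 3 conditions. Cebpd and Nfe2l3 were called against mock and with IFNα present, but not with IFNγ present. The list median was 0.00. In IFNγ against mock 3 of the 24 were called, against 1.63% of probe sets: Crem rose by 3.12 on the log2 scale (adjusted p = 4.7e-05), Batf2, a Jun partner known from IFN responses, rose by 1.70 (0.0044), and Maf fell by 1.60 (0.000252). With CHX present, IFNγ against CHX called 5 of the 24, against 3.18% of probe sets. Among them were Crem at 4.44, Batf2 at 2.82, Cebpd at 2.36 and Maf at -1.11.

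Upstream of AP-1, MAP kinase cascades phosphorylate Jun and the factors that drive Fos transcription. Of 29 tested genes for such kinases and factors, 1 rose and 4 fell in the mean CHX effect. Over all probe sets 3.89% were raised and 5.31% lowered. Map3k8, which activates the ERK pathway, rose by 1.26 on the log2 scale (adjusted p = 2.3e-05 in limma; 0.90 and 0.0384 against mock alone), while Mapkapk3, a substrate kinase of the stress-activated p38 kinases, fell by 1.85 (4.36e-05), Mapk7, the kinase ERK5, fell by 1.15 (0.000336) and Mapk11, a p38 kinase, fell by 1.04 (0.000768). Against mock alone these 3 were not called (0.0212, 0.125 and 0.0567). In IFNγ against mock 2 of the 29 were called, against 1.63% of probe sets: Map3k8 at 2.32 (0.000121) and Map2k6, an activator of p38 kinases, at -1.45 (0.000157). Map2k6 was also lower in IFNα against mock, at -1.50 (0.000252), and in CHX against mock, at -1.96 (5.51e-06), and these comparisons share the 3 mock arrays. Of 24 tested genes described as AP-1 targets, 2 rose and 4 fell in the mean CHX effect, against 3.89% and 5.31% of probe sets. Edn1, the endothelin precursor, rose by 3.81 (9.9e-10) and Fst, the activin-binding protein follistatin, by 2.52 (1.37e-09), whereas Sphk1, a sphingosine kinase, fell by 2.89 (1.76e-08) and Vegfa, an angiogenic growth factor, fell by 1.83 (5.2e-09). The called targets moved in both directions, and the list median was 0.18 on the log2 scale. Translation was inhibited on the arrays with CHX, so whether added AP-1 RNA leads to changes in these targets was not tested. In IFNγ against mock 3 of the 24 were called, Fst at 3.57, Sphk1 at 1.74 and Il6 at 1.44, against 1.63% of probe sets. Of 10 tested ubiquitin ligase genes for Jun and Fos proteins, 0 were called in either comparison, against 9.2% and 1.63% of probe sets.

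The genes whose levels ran most like each member over the 18 arrays were found by Pearson r of log2 values among 12078 other genes, as a description in which the treatments are shared. For Atf3 they were H2ax (r = 0.988), 4833438C02Rik (0.985) and Fam43a (0.98). Jun ran with E330013P04Rik (0.975), H2aw (0.975) and Ppm1h (0.974), and Maff with Bsdc1 (0.977), Aff1 (0.973) and Tnip1 (0.973). Jund was closest to Arc (0.969), a neuronal immediate-early gene, then to Slc5a5 (0.966) and Map1lc3a (0.955). The nearest to Fosb were Lgals3 (0.933), Srrm4 (0.917) and Fam214b (0.916), and the nearest to Fosl1 were Map2k3 (0.967), Mfn2 (0.958) and Inafm1 (0.955). Lower values were reached for Fosl2, with Cstf3 (0.916), Top1 (0.911) and Ly75 (0.909), and for Fos, with Stag1 (0.913), Magi3 (0.907) and 6230400D17Rik (0.902). Junb had the lowest, with Gadd45g (0.84), Agap2 (0.833) and Ier2 (0.83), the last an immediate-early gene.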

How the data were processed

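Newly transcribed RNA of 18 NIH-3T3 samples was measured on Affymetrix mouse arrays. The authors deposited 1 linear intensity per probe set and array, and the methods name gc-RMA for background correction, normalization and summation, while the submitters' processing notes name Affymetrix Expression Console without a version. Raw probe intensities were not analysed here. Log2 of the deposited intensity was used with no added constant. After 64 control probe sets were left out, 27773 of 45037 probe sets, those with the highest value on any array (8.5 or more), were kept, since present calls were not used here. Arrays have no sequencing depth: signal over background and 3 arrays per treatment limit the precision.

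A linear model of the 6 treatments was fitted in limma 3.58.1 under R 4.3.3 (12 residual and 2.05 prior degrees of freedom), with 12 two-sided contrasts and Benjamini-Hochberg adjustment over the probe sets kept. Both an adjusted p below 0.01 and at least 2-fold difference were needed for a call. The procedure was run on simulated data with independent noise on each array, so deviations shared by replicate number were not part of that test. Gene names came from the platform annotation, by probe sets with 1 symbol (22348 kept, 12121 genes). The text gives all member probe sets. Of each further list up to 4 called genes with the largest change are named, and the 3 genes most alike by r. The members and lists were chosen with earlier results of these data known, and a gene's probe set with the highest mean stands for it. Motifs were searched with Python in RefSeq promoters of GRCm38.p6.

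The main model did not pair arrays, and values come from it unless the replicate block is named. Replicate numbers in the labels were used for that block, an alternative setting, after a check. Deviations from group means correlated over 0.1 for each same-numbered pair in the 3 CHX comparisons (0.239 to 0.761 for CHX and mock, 0.241 to 0.618 with IFNα and 0.247 to 0.581 with IFNγ), as in IFNα and mock, CHX with IFNα and CHX, and CHX with IFNγ and CHX. They did not in IFNγ and mock, where replicate 2 gave -0.089. Alternatives were constants of 1 and 16, quantile normalization, median centring, other filters, the replicate block, only the arrays compared, no fold minimum, any probe set of a gene and each array left out. Leaving out a replicate number from all 6 treatments was added after seeing the data.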

Additional observations from a re-analysis of the deposited data

How the results depend on the processing

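Under the other settings that were run, none of the called changes of a member probe set turned round: of 2712 recomputed values, 40 lost a call, 17 gained one and 2655 kept their side of the threshold. Of the 2655, 2553 also kept their sign and 102, none of them called, did not. The number of AP-1 genes called in CHX with IFNα against IFNα was 2, and became 5 with fewer probe sets kept, 5 with the replicate block and 4 with only the arrays compared. In CHX with IFNγ against IFNγ it was 2, and became 4 with fewer probe sets kept, 4 with the replicate block, 4 with no fold minimum (Fos, Fosb, Jun and Atf3) and 1 with only the arrays compared. The mean of the 3 CHX effects gave 5, and 9 with no fold minimum. The cause of these shifts was not tested. IFNγ against mock gave 0, and 1 with the replicate block, where Fosb was lower with an adjusted p of 0.00555. Support for that block is mixed there: deviations of IFNγ and mock correlated at 0.569 and 0.452 for replicates 1 and 3, and at -0.089 for replicate 2. The block changed no call other than these and those given with the single CHX comparisons. Leaving out arrays gave 1 to 4 genes in CHX against mock (main count 3), 2 to 2 in CHX with IFNα against IFNα, 0 to 4 in CHX with IFNγ against IFNγ, 2 to 5 in the mean of the 3 effects, and 0 to 0 in each IFN comparison and interaction. Signal over background limits the second probe sets of Jund and Fosl2.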
